A study of Mus musculus with 2 samples.

Results

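The genes described here are Gusb, Lrrc8b, 1810037I17Rik, Tbxas1, Tsc22d2, Ccdc189 and Ankrd36, 7 of the 32285 genes counted in single cells of anaemic mouse spleen. They were picked because their unique molecular identifiers (UMIs, the counted RNA molecules) were higher in erythroid cells of the PHZ library than of the bleeding library, with no numeric limit stated. Their difference in erythroid cells is therefore a description of what chose them, and nothing is read from it. All 7 genes were matched by symbol in both libraries.

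Both libraries came from live spleen cells of C57BL/6 mice with chronic anaemia, which was induced over 1 month by injecting phenylhydrazine (PHZ, a compound that oxidises and lyses red cells) in the first group and by bleeding in the second, in each case every 3 days. Each group has 1 library, the number of mice behind it is not given in the labels, and untreated mice were not analysed here. A difference between the libraries can therefore not be told apart from a difference between mice or between preparations, and no test between treatments was possible.

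Anaemic mice make much of their red blood in the spleen. Precursors there divide, fill with haemoglobin, condense and expel the nucleus, and as reticulocytes clear the remaining organelles and RNA. Because haemoglobin messages come to dominate the RNA, the share of a cell's UMIs that are haemoglobin can serve as a rough clock of maturation. The 7 genes belong to no shared pathway. Gusb encodes β-glucuronidase, a lysosomal enzyme that removes glucuronic acid from glycosaminoglycans. Lrrc8b encodes a subunit of the volume-regulated anion channel, which lets cells lose chloride and osmolytes when they swell. 1810037I17Rik encodes another-regulin, a small membrane protein that binds the SERCA calcium pump of the endoplasmic reticulum. Tbxas1 encodes thromboxane A synthase, which turns prostaglandin H into thromboxane, a signal best known from platelets. Tsc22d2 belongs to the TSC22 leucine zipper family, whose members take part in transcription and in the response to osmotic stress. Ccdc189 is associated with cilia and flagella. Ankrd36 encodes an ankyrin repeat protein of little known function.

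The PHZ matrix held 128130213 UMIs and the bleeding matrix 145260780. After filtering, 6113 PHZ cells and 8953 bleeding cells remained, with a median of 12242 and 8045 UMIs, and the 2 libraries shared 15 cell barcodes. Erythroid-like cells numbered 3207 in the PHZ library, against 2344 in the bleeding library. Their 16 marker genes, such as Klf1, were all detected and summed to 21638 and 21902 CPM (the UMIs of a gene scaled to a fixed total of UMIs other than haemoglobin). The cells differed in maturation: the median haemoglobin share was 83.3% in PHZ cells and 90.8% in bleeding cells. Levels are therefore given in 6 stages, which hold 354 PHZ and 168 bleeding cells under 20% haemoglobin, 273 and 109 at 20 to 50%, 899 and 391 at 50 to 80%, 410 and 203 late cells (80% or more) with 500 or more genes, 1271 and 1473 late cells with under 500 genes, and 2539 and 2991 haemoglobin-dominated barcodes with at least 50 but fewer than 300 genes. The erythroid-like cells gave 24891864 UMIs other than haemoglobin in the PHZ library, against 11428762 in the bleeding library. Ratios are PHZ over bleeding, and their 95% intervals are exact conditional intervals that cover counting error only.

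Over all erythroid-like cells, Ankrd36 was at 109.5 CPM in the PHZ library, against 43.2 CPM in the bleeding library (2.53, interval 2.30 to 2.79). Gusb was at 134 and 57.2 CPM (2.34, 2.15 to 2.55). Ccdc189 was at 56.3 and 24.3 CPM (2.31, 2.03 to 2.64). These 3 genes had the widest gaps, while the other 4 lay closer together. Lrrc8b was at 73.0 CPM in PHZ cells and 38.5 CPM in bleeding cells (1.90), and Tsc22d2 was at 188.6 and 103.7 CPM (1.82). Tbxas1 was at 165.9 CPM in PHZ cells and 92.8 CPM in bleeding cells (1.79), and 1810037I17Rik was at 419 and 245 CPM (1.71). All 7 were at 1.5-fold or more, as were 3.23% of the 10456 genes with at least 50 UMIs over both libraries; since this contrast chose the genes, the count carries no information. The median ratio of the 7 was 1.90, and the median log2 ratio over all genes tested was 0.02. Of all genes tested, 0.392% had a higher ratio than Ankrd36 and 1.66% a higher ratio than 1810037I17Rik. With all UMIs, haemoglobin included, as the denominator, the median of all genes moved by 0.43 on the log2 scale, because the PHZ cells held less haemoglobin, and the 7 ratios then lay between 2.31 and 3.43.

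**Figure D1:**
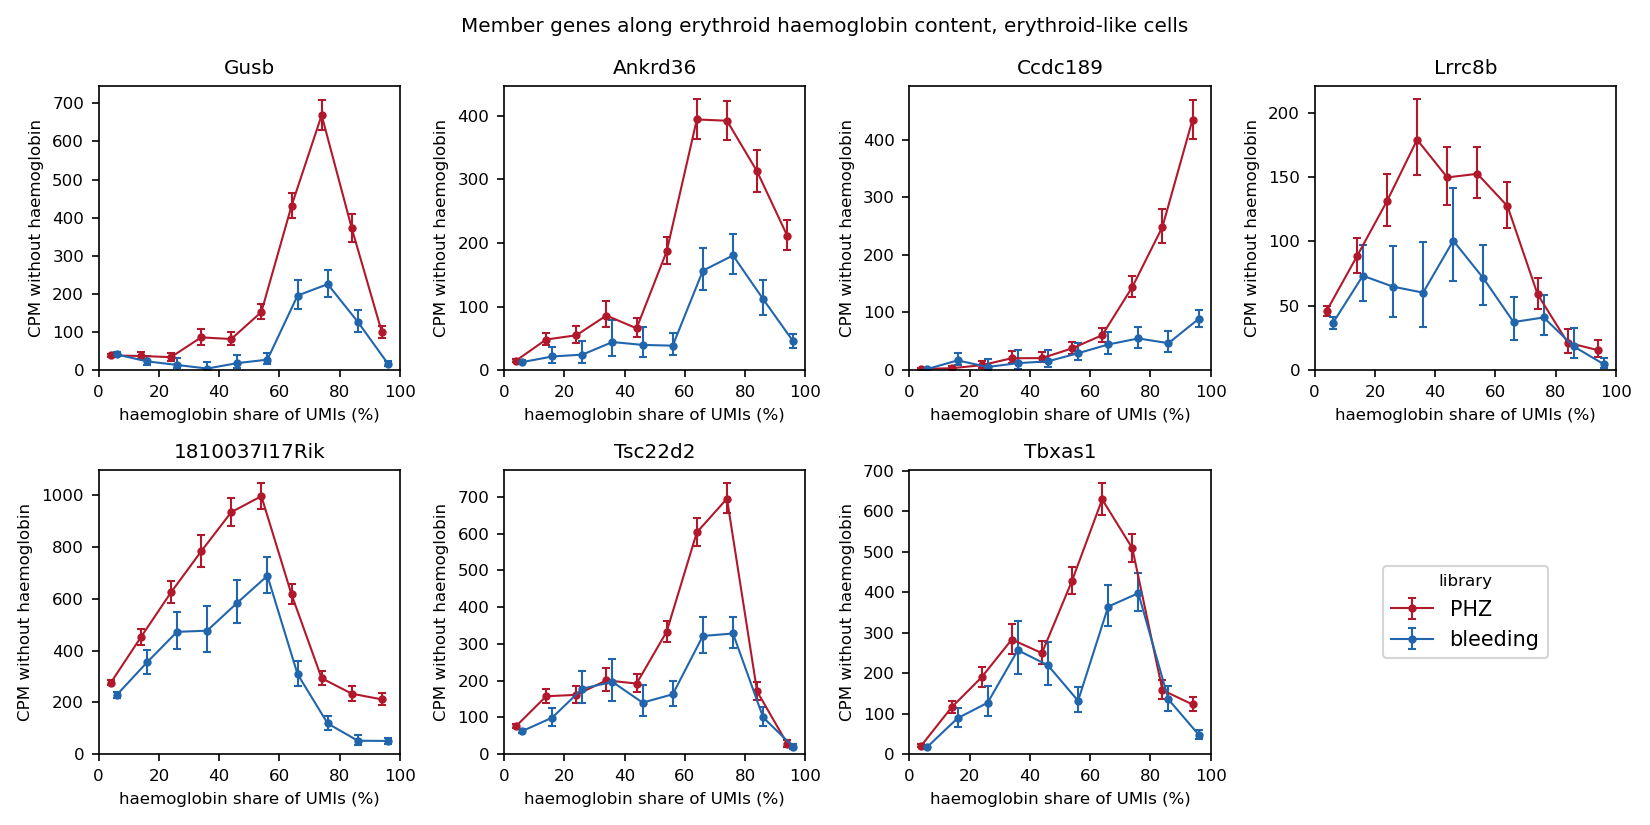
Level of each gene (CPM without haemoglobin, y axis) in erythroid-like cells grouped by haemoglobin share in steps of 10 percentage points (x axis), PHZ in red and bleeding in blue, with exact 95% Poisson intervals that cover counting error only. Gusb is highest at 70 to 80% haemoglobin in both libraries, whereas Ccdc189 is highest at 90% or more.

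The genes reached their highest levels at different points of maturation, and for 6 of the 7 the stage was the same in both libraries. By stage, Lrrc8b and 1810037I17Rik peaked early, at 20 to 50% haemoglobin. In steps of 10 percentage points, however, 1810037I17Rik was highest at 50 to 60% in both libraries (997 CPM in PHZ and 690 CPM in bleeding cells). Gusb, Tsc22d2 and Tbxas1 peaked at 50 to 80%. Ccdc189 peaked in the late cells with under 500 genes. Ankrd36 was highest in bleeding cells at 50 to 80% (130.3 CPM), and in PHZ cells its levels at 50 to 80% (326 CPM) and in the late cells with 500 or more genes (339 CPM) were close. The gap between libraries had its own course in each gene. Read in steps of 10 percentage points of haemoglobin, Ankrd36, Lrrc8b, 1810037I17Rik and Tbxas1 were higher in the PHZ library in all 10 steps, and Gusb, Ccdc189 and Tsc22d2 in 9 of 10. Within 2 points of the stage limits at 20, 50 and 80% lay 45, 55 and 115 PHZ cells and 13, 27 and 80 bleeding cells.

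Under 20% haemoglobin, none of the 7 genes was at 1.5-fold or more, against 2.49% of 9698 genes tested, and the ratios ran from 0.669 for Ccdc189 to 1.45 for Ankrd36, with a median of 1.29. The interval lay above 1 for 5 of the 7, the exceptions being Gusb and Ccdc189. Gusb was at 38.2 CPM in the PHZ library, against 39.2 CPM in the bleeding library (ratio 0.974, 0.837 to 1.13). Tsc22d2 was at 86.9 and 66.1 CPM (1.32, 1.18 to 1.47). Many of these UMIs came from 1 cluster of very deep cells, cluster 17, with a median of 79569 UMIs other than haemoglobin in its 147 PHZ cells and 78154 in its 69 bleeding cells, led by Car1, Mt2 and Mt1. Of the 540 PHZ and 255 bleeding UMIs of Gusb at this stage, 94 and 42 remained without that cluster, whereas of the 478 and 163 of Tbxas1 417 and 144 remained. Without that cluster, 210 PHZ and 101 bleeding cells remained, and Ankrd36 (1.86, 1.31 to 2.68) and Tsc22d2 (1.85, 1.55 to 2.22) were past 1.5-fold, against 6.52% of 6730 genes. Ccdc189 was lower there, with 8 UMIs in PHZ cells and 13 in bleeding cells (2.53 and 8.84 CPM, 0.286, 0.103 to 0.744), too few for the 50-UMI floor. Gusb was close to equality, with 29.7 CPM in PHZ cells and 28.6 CPM in bleeding cells (1.04, 0.715 to 1.53). When every cell counted equally, 5 of the 7 were past 1.5-fold, namely Ankrd36 (3.201), Tsc22d2 (2.05), Tbxas1 (1.86), Ccdc189 (1.84) and Lrrc8b (1.65), while Gusb (1.05) and 1810037I17Rik (1.16) were not. The share of all genes past 1.5-fold with this weighting was not computed, so nothing is read from that count. Ccdc189 had only 32 PHZ and 22 bleeding UMIs at this stage, and its summed ratio was 0.669.

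At 20 to 50% haemoglobin 5 of 7 were at 1.5-fold or more, against 7.32% of 5821 genes. At 50 to 80% all 7 were, against 7.36% of 5422 genes, and every interval lay above 1. In the late cells with 500 or more genes it was 5 of the 6 that had enough UMIs (14.0% of 1697 genes), in those with under 500 genes 5 of 6 (19.1% of 2196), and in the haemoglobin-dominated barcodes 6 of 6 (19.8% of 2247). The share of all genes past the same fold thus grew as cells lost RNA. The stages come from the same cells as the contrast that chose the genes, so these counts are descriptions too.

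**Figure D2:**
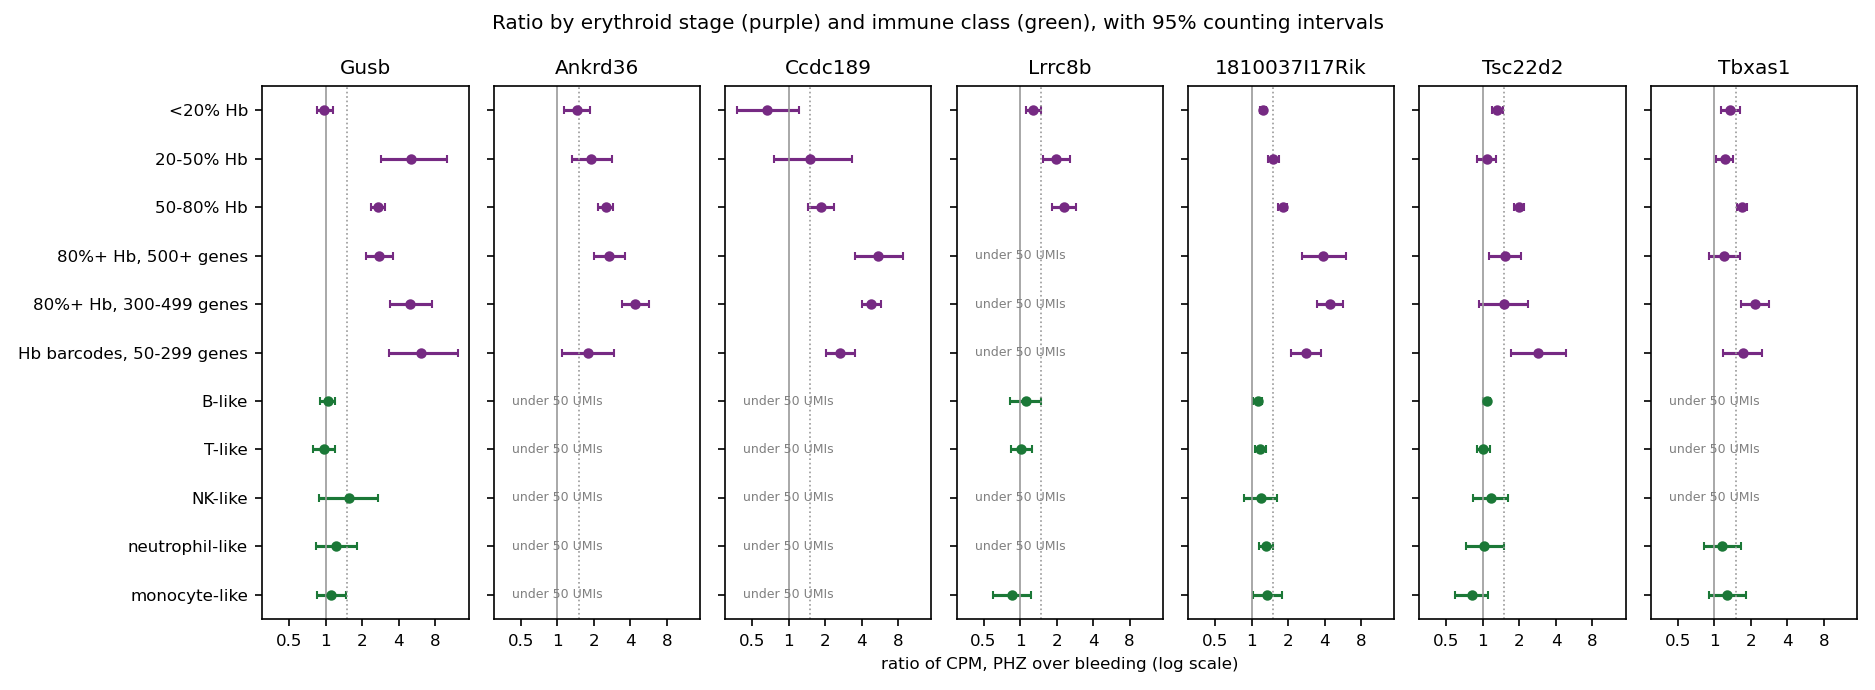
Ratio of CPM, PHZ over bleeding (x axis, log scale), for each gene in the 6 erythroid stages (purple) and 5 immune classes (green), with exact 95% counting intervals. The solid line marks equal levels and the dotted line 1.5-fold, and groups with under 50 UMIs over both libraries are marked in grey; the erythroid points lie mostly right of the dotted line and most immune intervals include equality.

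Gusb, on chromosome 5 (chr5:129989011-130003049, minus strand, GRCm38), was close to equality at the earliest stage, as given above. At 20 to 50% haemoglobin it was at 64.1 CPM in PHZ cells and 12.7 CPM in bleeding cells, a ratio of 5.06 (2.84 to 9.95) that rests on 213 UMIs in the PHZ library, against only 12 in the bleeding library, 58.3% of these in 3 cells. Its level at 50 to 80% was 420 CPM in PHZ cells and 157 CPM in bleeding cells (2.68, 2.37 to 3.05), with 2017 and 285 UMIs. The late cells with 500 or more genes had 414 and 150 CPM (2.75, 2.13 to 3.60). At both of these stages the level in either library was above that of the earliest stage. In the late cells with under 500 genes it was at 96.3 CPM in the PHZ library, against 19.5 CPM in the bleeding library (4.95, 3.38 to 7.44), and in the haemoglobin-dominated barcodes at 43.1 and 7.06 CPM. Per 10 points of haemoglobin, the highest levels were 669 CPM in PHZ cells and 226 CPM in bleeding cells, both at 70 to 80%.

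The start of Gusb is shown because its window, unlike those of the other genes here, holds the cyclic AMP response element TGACGTCA, printed in capitals. The 300 bases run from 250 before to 50 after the RefSeq start (chr5:130003000-130003299, minus strand, GRCm38.p6), 5′ to 3′.
Gusb promoter: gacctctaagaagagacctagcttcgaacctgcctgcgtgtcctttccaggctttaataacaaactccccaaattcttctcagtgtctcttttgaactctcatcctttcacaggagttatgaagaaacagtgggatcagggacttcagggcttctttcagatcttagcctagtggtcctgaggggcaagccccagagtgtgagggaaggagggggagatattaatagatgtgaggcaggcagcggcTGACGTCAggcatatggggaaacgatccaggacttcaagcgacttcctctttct
The element starts 4 bases before the start site and occurs in 1.79% of 32851 RefSeq promoter windows of the same length. It is a match of letters, not a measured binding site.

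Among 17 tested genes for lysosomal hydrolases, the enzymes that degrade sugars and lipids in lysosomes, Gusb was the only one at 1.5-fold or more in erythroid-like cells, and 3 were lower by as much, against 7.77% of all genes in that direction. These were Hexa, the α subunit of β-hexosaminidase (2.13 CPM in PHZ cells and 3.59 CPM in bleeding cells, 0.594), the mannosidase gene Manba (3.29 and 5.60 CPM, 0.588) and the sialidase gene Neu1 (3.58 and 5.69 CPM, 0.629). All 3 rested on under 100 UMIs per library. The median ratio of the list was 0.984. The fucosidase gene Fuca1 was at 25.8 CPM in PHZ cells and 22.8 CPM in bleeding cells (1.13). Of 9 lysosome regulators and membrane or protease genes, none was higher by 1.5-fold and 1, Tfeb, a master regulator of lysosome genes, was lower (2.61 CPM in PHZ cells and 4.73 CPM in bleeding cells, 0.553, 0.379 to 0.808). The lysosome membrane gene Lamp1 was at 84.4 CPM in both. The cathepsin gene Ctsb was at 306 and 385 CPM (0.795), and Ctsd at 110.4 and 97.4 CPM (1.13). By stage, 0 of 16 tested hydrolase genes were at 1.5-fold or more under 20% haemoglobin (2.49% of all genes). At 20 to 50% only 2 had enough UMIs, Gusb among them, and both were (7.32% of all genes). At each later stage Gusb was the only hydrolase gene with enough UMIs.

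Lrrc8b, also on chromosome 5 (chr5:105415775-105490074, plus strand), was an early gene. It was at 51.7 CPM in PHZ cells and 40.1 CPM in bleeding cells under 20% haemoglobin (1.29, 1.12 to 1.49), at 149.8 and 76.0 CPM at 20 to 50% (1.97, 1.54 to 2.56) and at 112.5 and 48.9 CPM at 50 to 80% (2.30, 1.83 to 2.91). In the late cells with 500 or more genes it had only 20 and 13 UMIs, with the PHZ level not higher (20.2 and 28.4 CPM, 0.712, 0.337 to 1.56). Its position gives a comparison within 1 gene cluster, since the channel genes Lrrc8c and Lrrc8d follow it on the same strand at 29314 and 209895 bases. Lrrc8c was at 68.5 CPM in PHZ cells and 67.8 CPM in bleeding cells (1.01, 0.927 to 1.10), and Lrrc8d at 16.4 and 22.6 CPM (0.724, 0.618 to 0.850). Lrrc8a, the subunit every such channel needs, was at 11.5 and 10.3 CPM (1.11, 0.895 to 1.39). Lrrc8b was thus the only 1 of 4 tested channel genes at 1.5-fold or more, and Lrrc8e had 3 and 0 UMIs.

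1810037I17Rik, on chromosome 3 (chr3:122924203-122926184, plus strand), had the highest level of the 7 over all erythroid-like cells. It was at 299.1 CPM in PHZ cells and 241 CPM in bleeding cells under 20% haemoglobin (1.24, 1.17 to 1.31), at 777 and 513 CPM at 20 to 50% (1.51, 1.37 to 1.67) and at 632 and 349 CPM at 50 to 80% (1.81, 1.66 to 1.98). The ratio was larger in late cells, where levels were low: 229 and 58.9 CPM with 500 or more genes (3.89, 2.60 to 6.03), and 216 and 48.9 CPM with under 500 genes (4.42, 3.47 to 5.68). These late levels lay below those of the background barcodes of the same library. They were at 0.824 times in PHZ cells and 0.620 times in bleeding cells with 500 or more genes, and at 0.777 and 0.515 times with under 500. How much of them is background was not measured. Its ratio at 20 to 50% sat at the 1.5-fold limit and fell just under it after background subtraction.

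The 1810037I17Rik window (chr3:122924147-122924446, plus strand, GRCm38.p6) is shown because it holds TTCNNNGAA, the spaced palindrome that STAT factors such as STAT5 of the erythropoietin pathway can bind, with N standing for any base. The match is in capitals and starts 119 bases before the RefSeq start site. The gene as annotated by GENCODE begins upstream of that site, at position 122924203, so the match lies inside the GENCODE gene.
1810037I17Rik promoter: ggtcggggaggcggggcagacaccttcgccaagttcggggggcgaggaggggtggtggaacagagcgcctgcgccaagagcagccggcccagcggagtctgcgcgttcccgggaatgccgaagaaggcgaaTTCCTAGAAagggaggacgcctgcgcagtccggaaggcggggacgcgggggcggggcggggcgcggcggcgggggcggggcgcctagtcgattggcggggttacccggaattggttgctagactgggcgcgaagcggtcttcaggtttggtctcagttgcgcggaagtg
This pattern is in 8.30% of all windows, and among the 7 windows only here. No measurement of binding was made.

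Among 4 tested SERCA genes and micropeptides, 1810037I17Rik and Smim6, which encodes another SERCA-binding micropeptide, were at 1.5-fold or more, Smim6 with 8.12 CPM in PHZ cells and 5.25 CPM in bleeding cells (1.55, 1.15 to 2.10). The pump gene Atp2a2 was at 118 and 103 CPM (1.15, 1.07 to 1.23). The pump gene Atp2a3, which is prominent in blood cells, was lower, with 48 UMIs in the PHZ library, against 65 in the bleeding library (1.93 and 5.69 CPM, 0.339, 0.229 to 0.49998). The micropeptide genes Sln and Strit1 had no UMI in either library, and Pln (15 and 11 UMIs) and Mrln (1 and 3 UMIs) had too few to compare.

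Tbxas1, on chromosome 6 (chr6:38875404-39084585, plus strand), was at 33.8 CPM in PHZ cells and 25.1 CPM in bleeding cells under 20% haemoglobin (1.35, 1.13 to 1.62) and at 235 and 193 CPM at 20 to 50% (1.22, 1.03 to 1.43). It reached 523 CPM in PHZ cells and 307 CPM in bleeding cells at 50 to 80% (1.70, 1.55 to 1.87). Late cells with 500 or more genes had 181.6 and 150.5 CPM (1.21, 0.910 to 1.62), so the interval there included equality. Late cells with under 500 genes had 111 and 51.3 CPM (2.17, 1.67 to 2.83). The rest of the thromboxane, prostaglandin and leukotriene list did not share this: Tbxas1 was the only 1 of 6 tested genes at 1.5-fold or more, none was lower by as much, and the median was 0.910. The cyclooxygenases, which make the substrate of thromboxane synthase, were near absent, with 4 and 7 UMIs for Ptgs1 and 2 and 1 for Ptgs2. The thromboxane receptor gene Tbxa2r had 5 and 5 UMIs. Ptges3, a co-chaperone also known as a prostaglandin E synthase, was at 258 and 252 CPM (1.02), and the phospholipase gene Pla2g4a at 20.1 and 24.9 CPM (0.806). Tbxas1 shares its locus with genes on the other strand: the kinase gene Hipk2 (439 CPM in PHZ cells and 349 CPM in bleeding cells, 1.26) and the antisense gene Gm42962 (409 and 88 UMIs, 2.13). The labels do not state how counting used strand or introns, so reads of Tbxas1 and of Gm42962, the only listed overlapping gene with a ratio past 1.5 and enough UMIs, are reported as uncertain. Whether intronic reads were counted also bears on the level of Ankrd36, a long gene that overlaps a pseudogene on each strand, and its values carry the same doubt.

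Tsc22d2, on chromosome 3 (chr3:58414715-58466783, plus strand), had its highest level at 50 to 80% haemoglobin. At 20 to 50% it was at 182 CPM in PHZ cells and 170 CPM in bleeding cells (1.07, 0.900 to 1.29). It then reached 547 and 277 CPM at 50 to 80% (1.98, 1.80 to 2.18), with 2624 and 503 UMIs. Late cells with 500 or more genes had 188 and 124 CPM (1.51, 1.12 to 2.07), and those with under 500 genes only 29.6 and 20.04 CPM. Its relatives stayed closer to equality in erythroid-like cells: Tsc22d4 was at 126.6 CPM in PHZ cells and 110.1 CPM in bleeding cells (1.15, 1.08 to 1.23), Tsc22d1 at 24.6 and 24.6 CPM (interval 0.868 to 1.16) and the glucocorticoid-induced Tsc22d3 at 8.36 and 9.10 CPM (0.918, 0.722 to 1.17).

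Ccdc189, on chromosome 7 (chr7:127582383-127588595, minus strand), peaked last. Under 20% haemoglobin it was hardly detected, with 32 UMIs in the PHZ library, against 22 in the bleeding library (2.26 and 3.38 CPM, 0.669, 0.377 to 1.21). It was at 81.2 CPM in PHZ cells and 44.0 CPM in bleeding cells at 50 to 80% (1.85, 1.45 to 2.38), at 271 and 50.2 CPM in late cells with 500 or more genes (5.41, 3.53 to 8.68), and at 406 and 84.3 CPM in those with under 500 genes (4.81, 4.01 to 5.81). In the haemoglobin-dominated barcodes it was at 122 and 46.2 CPM (2.65, 2.02 to 3.49). In the late cells with 500 or more genes only 0.0589% of tested genes had a higher ratio. Of 9 tested cilium and flagellum genes it was the only 1 at 1.5-fold or more, and the median was 0.983. The transport gene Ift20 was at 103 and 105 CPM (0.983), Cfap20 at 33.9 and 35.0 CPM (0.969) and Cfap298 at 33.8 and 35.1 CPM (0.964). Phkg2, which overlaps Ccdc189 on the other strand, was at 17.1 and 15.3 CPM (1.12), and Rnf40, 172 bases away, at 20.01 and 17.3 CPM (1.16).

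Ankrd36, on chromosome 11 (chr11:5569684-5689337, plus strand), was at 19.4 CPM in PHZ cells and 13.4 CPM in bleeding cells under 20% haemoglobin (1.45, 1.13 to 1.87) and at 66.5 and 34.8 CPM at 20 to 50% (1.91, 1.32 to 2.84). It reached 326 and 130.3 CPM at 50 to 80% (2.50, 2.18 to 2.88). Late cells with 500 or more genes had 339 and 126.5 CPM (2.68, 2.02 to 3.61), and those with under 500 genes 204 and 46.6 CPM (4.37, 3.41 to 5.66). Its window (chr11:5569434-5569733, plus strand, GRCm38.p6) is printed because it holds the E-box CACGTG, in capitals, 30 bases before the start site.
Ankrd36 promoter: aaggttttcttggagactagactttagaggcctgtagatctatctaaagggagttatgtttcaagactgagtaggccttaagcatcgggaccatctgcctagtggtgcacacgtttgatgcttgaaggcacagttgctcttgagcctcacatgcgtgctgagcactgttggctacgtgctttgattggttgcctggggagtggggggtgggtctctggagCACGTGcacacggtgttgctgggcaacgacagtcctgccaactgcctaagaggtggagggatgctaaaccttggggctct
CACGTG occurs in 7.15% of all windows, and also in the second of the 2 Ccdc189 windows. In all, 7 windows were available for 6 of the genes, and Tsc22d2 had none. The GATA motif AGATAA, searched on both strands as were the others, was in none of them (11.2% of all windows hold it), nor was TGATGNAA, an ATF4-type motif (3.97%). CACCC, a Krüppel-like factor core, was in 5 of 7 windows (57.5% of all), and ATTGG, the CCAAT box read on the other strand, in 5 of 7 (37.4%).

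Ankrd36 was the only 1 of 17 tested genes of a list of ankyrin repeat genes at 1.5-fold or more, the list's median being 1.03. Ankrd11 was at 233 and 230 CPM (1.01), Ankrd17 at 153.5 and 170.4 CPM (0.901) and Ankrd13a at 102 and 90.9 CPM (1.12). Nearby genes were compared too: of the 28 nearest coding neighbours of the 7 genes, 19 had enough UMIs in erythroid-like cells, with a median ratio of 1.04. The only neighbour at 1.5-fold or more was Xbp1, a transcription factor of the unfolded protein response, 43791 bases from Ankrd36, at 50.9 CPM in PHZ cells and 26.9 CPM in bleeding cells (1.89, 1.67 to 2.15). Ccdc117, which lies between them, was at 19.6 and 14.3 CPM (1.37, 1.15 to 1.65). On the other side, Rnf13 near Tsc22d2 was lower (2.77 and 5.60 CPM, 0.495, 0.347 to 0.707).

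Shares of cells with a UMI followed the levels. To remove the effect of depth, the share was computed with each cell thinned to 2636 UMIs other than haemoglobin at 50 to 80% haemoglobin, which kept 826 PHZ cells and 336 bleeding cells. Gusb was then expected in 43.9% of PHZ cells and 21.3% of bleeding cells (51.3% and 24.8% before thinning). Ankrd36 was expected in 46.1% and 22.1% (57.4% and 26.6% before), and Tsc22d2 in 62.3% and 37.1% (74.3% and 47.6% before). The remaining 4 were also higher in PHZ cells, from 17.1% against 9.33% for Ccdc189 to 57.4% against 37.1% for 1810037I17Rik. For comparison, B cell-like cells, which should lack erythroid genes, held an Ankrd36 UMI in 0.521% of PHZ cells and 0.116% of bleeding cells, and a Ccdc189 UMI in 0.651% and 0.291%. The median depth other than haemoglobin was 5793 and 5630 UMIs in these B cell-like cells, and 4549 and 3756 at 50 to 80% haemoglobin.

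**Figure D3:**
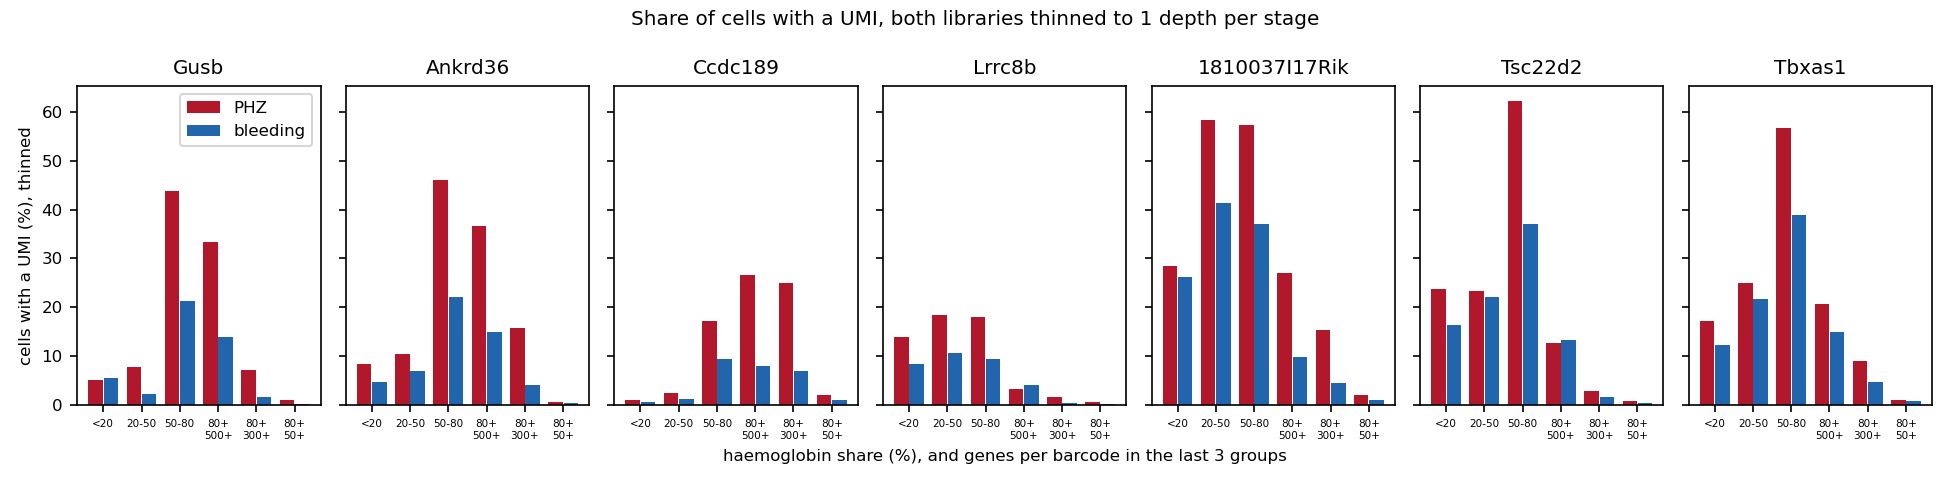
Share of cells expected to hold at least 1 UMI of each gene (y axis, percent) in the 6 erythroid stages (x axis), with the cells of both libraries thinned to 1 depth per stage; PHZ bars are red and bleeding bars blue. At 50 to 80% haemoglobin Gusb is at 43.9% in PHZ cells and 21.3% in bleeding cells, and under 20% it is at 4.99% and 5.37%.

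RNA outside cells limits what the early and late stages show. In background barcodes of 10 to 100 UMIs, which hold mainly free RNA, all 7 genes were higher in the PHZ library, from 242 and 166 CPM for Tsc22d2 (1.46, 1.29 to 1.66) to 73.7 and 15.3 CPM for Ankrd36 (4.82, 3.39 to 7.02). Gusb was at 89.1 and 34.6 CPM there (2.58). Under 20% haemoglobin Tsc22d2 (0.359 and 0.399 times) and Tbxas1 (0.242 and 0.382 times) lay below that level in both libraries. Ankrd36 (0.263 and 0.874 times) and Ccdc189 (0.109 and 0.560 times) did so too. Gusb (0.428 times) and Lrrc8b (0.744 times) were below it in the PHZ library only, and 1810037I17Rik in neither. At 20 to 50% Gusb was below it in both (0.719 and 0.366 times), and Ankrd36, Ccdc189 and Tsc22d2 in PHZ only. At 50 to 80% haemoglobin all 7 genes stood above that level in both libraries, Gusb by 4.72 times in the PHZ library, against 4.53 times in the bleeding library, Lrrc8b by the least in the PHZ library (1.62 times, and 1.84 times in the bleeding library). In the late cells with under 500 genes only Ccdc189 (19.6 and 13.97 times) and Ankrd36 (2.76 and 3.05 times) were clearly above it in both libraries. Tsc22d2 was at 0.122 and 0.121 times the background level and Lrrc8b at 0.240 and 0.111 times. Tbxas1 (0.797 and 0.782 times) and 1810037I17Rik were also below it in both libraries. How much of the values of these 4 genes there is free RNA was not measured. Gusb was at 1.08 times the background level in the PHZ library, against 0.562 times in the bleeding library. When 5% of each barcode's UMIs was subtracted as background, 1 of 6 genes in the haemoglobin-dominated barcodes was still at 1.5-fold or more, Ccdc189 (2.32), and all of the UMIs of Gusb, 1810037I17Rik, Tsc22d2 and Tbxas1 there were removed in both libraries, as were those of Ankrd36 in the PHZ library. All 7 kept, at 50 to 80% haemoglobin, a ratio of 1.67 or more after that subtraction. Under 20% haemoglobin it left 501 of 540 PHZ and 247 of 255 bleeding UMIs of Gusb (ratio 0.928). Of Tsc22d2, 1123 of 1230 and 393 of 430 were left (1.31), and of Ccdc189 22.9 of 32 and 20.7 of 22 (0.507). In the late cells with under 500 genes 5 of 6 tested genes were still at 1.5-fold or more. All UMIs of Tsc22d2 and Lrrc8b there were removed in both libraries. Of 1810037I17Rik, 187 of 350 PHZ and 16.9 of 83 bleeding UMIs were left, and of Tbxas1 98.1 of 180 and 41.4 of 87. The 5% was set, not measured.

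**Figure D4:**
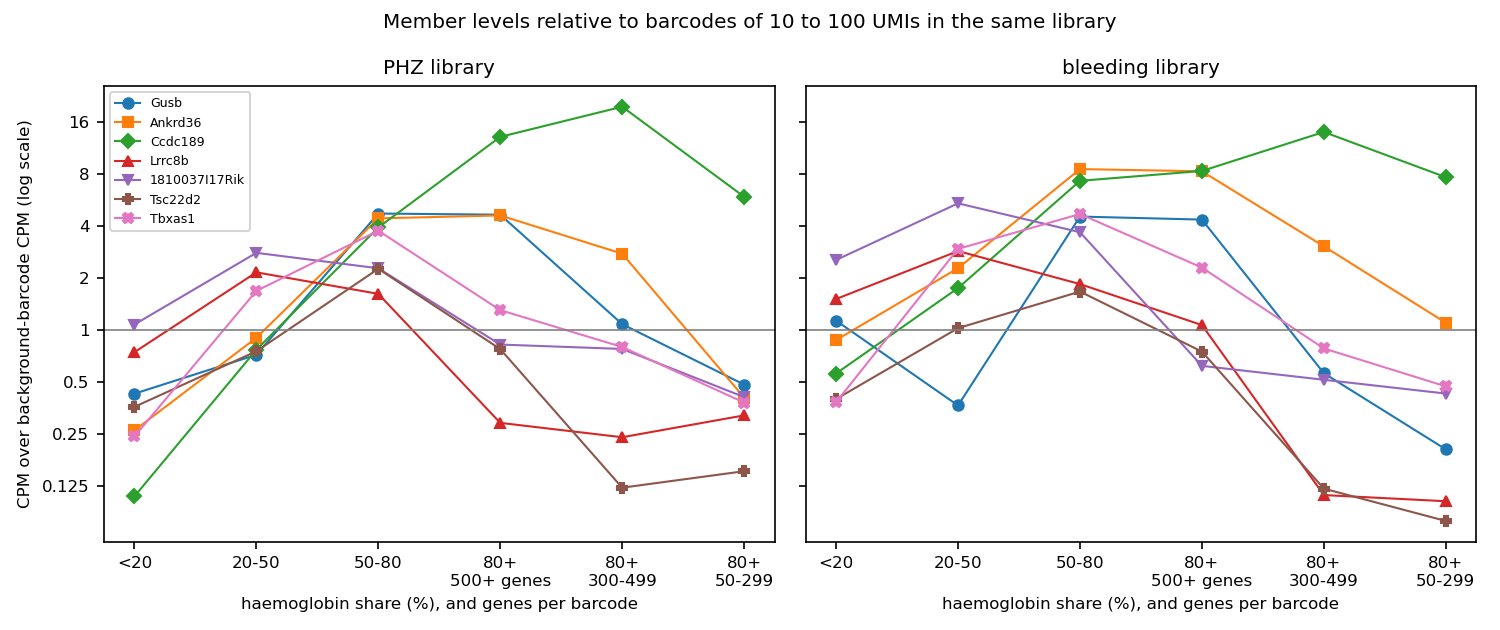
Level of each gene in the 6 erythroid stages (x axis) divided by its level in background barcodes of the same library (y axis, log scale), PHZ library on the left and bleeding library on the right, the grey line marking equality. At 50 to 80% haemoglobin all 7 genes lie above the line in both libraries, and in the late cells with under 500 genes Ccdc189 is at 19.6 times the background level in the PHZ library, against 13.97 times in the bleeding library.

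Other markers also moved along with the late values. In late cells with under 500 genes, the transferrin receptor gene Tfrc, which red cell precursors lose as they mature, was at 325 CPM in PHZ cells and 54.2 CPM in bleeding cells (5.99), so cells with the same haemoglobin share differed in this maturation marker. At 50 to 80% Tfrc was at 3200 and 2193 CPM (1.46), while Slc4a1 (1.06) and Alas2 (1.04) were near equality. At that stage, where all 7 genes were past 1.5-fold, all 13 neutrophil markers were detected in PHZ cells and 10 in bleeding cells, where Ly6g, Csf3r and Cxcr2 were at 0, and they summed to 469 and 216 CPM. The 11 red pulp macrophage markers summed to 48.1 CPM in PHZ cells, of which Vcam1, C1qc and Axl were at 0, and to 174 CPM in bleeding cells. The 13 neutrophil markers, all detected in the late cells with under 500 genes in both libraries, summed to 1401 CPM in PHZ cells and 746 CPM in bleeding cells, and the 10 B cell markers, all detected, to 162 and 501 CPM. Over all erythroid-like cells the neutrophil markers summed to 325 and 200 CPM, and the 11 red pulp macrophage markers to 49.4 and 83.9 CPM. In the same cells the 10 B cell markers summed to 42.3 and 160.6 CPM. The 10 T cell markers summed to 11.8 and 72.4 CPM and the 6 plasma cell markers to 7.39 and 41.1 CPM. Their part in the ratios was not tested. Fewer UMIs of a gene in a group can also not be told apart from fewer cells that express it, except through the shares given above.

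The erythroid clusters hold the same cells on which the genes were chosen, so their values only show where the UMIs lay. In cluster 7, led by Tmcc2 and Xpo7 with 569 PHZ and 289 bleeding cells, Gusb was at 740 CPM in PHZ cells and 303 CPM in bleeding cells (2.44, 2.15 to 2.78) and Tsc22d2 at 695 and 324 CPM (2.15, 1.90 to 2.43). In cluster 6, led by cell division genes such as Top2a and Cenpf, Gusb was at 56.7 and 20.9 CPM (2.71) and Lrrc8b at 139 and 71.0 CPM (1.96), while Ccdc189 was even at 18.8 and 17.99 CPM (1.04, 0.762 to 1.45). Cluster 13, led by Gm31452 with 234 PHZ and 103 bleeding cells, had the highest erythroid levels of Ankrd36 (608 and 305 CPM, 1.99) and Tbxas1 (772 and 508 CPM, 1.52). In the deep, early cluster 17 no gene reached 1.5-fold except Tbxas1 (1.504, 0.887 to 2.66, on 62 and 19 UMIs). A further cluster, numbered 18, had 8 of the 16 erythroid markers raised but very few UMIs and was left unnamed. Its 137 PHZ and 79 bleeding cells had Tsc22d2 at 1100 and 575 CPM (1.91, 1.49 to 2.49) and Gusb at 441 and 97.1 CPM (4.54, 2.56 to 8.76), and 7 and 0 UMIs of 1810037I17Rik.

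The choice of the genes used no value of immune cells, and 3 to 5 of the 7 had enough UMIs to compare there. In B cell-like cells (1535 PHZ, 3436 bleeding), 4 of the 7 genes had enough UMIs and none was at 1.5-fold or more, against 4.37% of 11388 genes. Gusb was at 28.9 CPM in PHZ B cells and 27.8 CPM in bleeding B cells (1.04, 0.899 to 1.20), Tsc22d2 at 124.9 and 115.9 CPM (1.08, 1.01 to 1.15), Lrrc8b at 7.63 and 6.85 CPM (1.11, 0.833 to 1.48) and 1810037I17Rik at 77.9 and 69.4 CPM (1.12, 1.03 to 1.22). With a floor of 10 UMIs in place of 50, 3 genes were past 1.5-fold in B cell-like cells and 3 in T cell-like cells. All of these rested on under 50 UMIs over both libraries. The share of all genes past the fold at that floor was not computed, so nothing is read from these counts. In T cell-like cells (545 PHZ, 2156 bleeding) none of 4 was at 1.5-fold or more, against 4.33% of 10905 genes. Gusb was at 25.4 and 26.2 CPM there (0.968, 0.786 to 1.18), Lrrc8b at 26.2 and 25.6 CPM (1.02, 0.833 to 1.25), Tsc22d2 at 68.7 and 68.3 CPM (1.01, 0.888 to 1.14) and 1810037I17Rik at 87.6 and 73.9 CPM (1.19, 1.06 to 1.32). All these B and T cell-like levels lay below those of the background barcodes of the same library. For Gusb the background was at 89.1 CPM (PHZ) and 34.6 CPM (bleeding), and for Lrrc8b at 69.5 and 26.6 CPM. For Tsc22d2 it was at 242 and 166 CPM, and for 1810037I17Rik at 278 and 94.9 CPM. How much of the B and T cell-like levels is background RNA was not tested.

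NK cell-like cells were few (63 PHZ, 159 bleeding), and 1 of 3 tested genes, Gusb, was past 1.5-fold there, with 22 and 37 UMIs (1.55, 0.873 to 2.70), against 5.65% of 5279 genes. In neutrophil-like cells (295 PHZ, 112 bleeding) none of 4 was, against 7.05% of 7207 genes. 1810037I17Rik was at 300 CPM in PHZ neutrophils and 229 CPM in bleeding neutrophils (1.31, 1.15 to 1.49), the only neutrophil interval of the 4 above 1. In monocyte-like cells (155 PHZ, 71 bleeding) none of 5 was, against 7.26% of 6464 genes. There, Gusb was at 106 and 96.3 CPM (1.10, 0.839 to 1.46), Tbxas1 at 75.4 and 58.9 CPM (1.28, 0.908 to 1.84) and Lrrc8b at 52.4 and 61.6 CPM (0.850, 0.594 to 1.23). The highest monocyte ratio was that of 1810037I17Rik (1.35), the only monocyte interval above 1, and the lowest that of Tsc22d2 (0.807). For 1810037I17Rik the interval thus lay above 1 in B cell-, T cell-, neutrophil- and monocyte-like cells. In NK cell-like cells its ratio was 1.20, with an interval that included 1. Among immune classes with 50 or more cells in each library, Gusb and Lrrc8b thus had their highest levels in monocyte-like cells of both libraries, 1810037I17Rik in neutrophil-like cells and Tsc22d2 in B cell-like cells. For Tsc22d2 the B and NK cell-like levels did not differ beyond counting error in either library (117.5 and 101.2 CPM in NK cell-like cells). Both lay below the background barcodes of the same library (242 and 166 CPM). The Lrrc8b level in monocyte-like cells lay below the background in the PHZ library only (69.5 and 26.6 CPM in background barcodes).

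Ankrd36 and Ccdc189 had few UMIs in these immune classes. Ankrd36 had 8 UMIs in PHZ B cell-like cells and 4 in bleeding ones, 7 and 9 in T cell-like cells, 5 and 0 in neutrophil-like cells, 1 and 0 in monocyte-like cells and none in NK cell-like cells. Ccdc189 had 11 and 10 UMIs in B cell-like cells, 9 and 2 in T cell-like cells, and its most in neutrophil-like cells, with 32 and 13 (7.98 CPM in PHZ and 10.7 CPM in bleeding neutrophils). These levels lie below those of the background barcodes in PHZ cells (20.7 CPM for Ccdc189, 73.7 CPM for Ankrd36) and cannot be told apart from background there. In the bleeding library the background level of Ccdc189 was 6.03 CPM, below its level in neutrophil-like cells of that library.

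Tbxas1 UMIs were not confined to erythroid-like cells. In the bleeding library Tbxas1 was at 351 CPM (356 UMIs) in 212 red pulp macrophage-like cells. Such macrophages clear old red cells. That was above its highest erythroid stage level in that library (307 CPM) but below its level at 70 to 80% haemoglobin (397 CPM). The macrophage-like cells had a median haemoglobin share of 47.7% in the bleeding library, against 3.07% in the PHZ library. How much of their Tbxas1 came from erythroid RNA was not tested. The PHZ library had only 16 such cells, with 4 Tbxas1 UMIs (104 CPM). Dendritic cell-like cells (17 PHZ, 39 bleeding) had Tbxas1 at 151 and 86.2 CPM (1.76, 1.25 to 2.46), with 63.2% of the PHZ UMIs in 3 cells. Gusb was at 211 and 298 CPM in the same dendritic cells. In the bleeding library that was above its highest erythroid stage level (157 CPM) and its level at 70 to 80% haemoglobin (226 CPM). It was close to its level in bleeding cells of cluster 7, given above.

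Across the 22 combinations of 11 cell groups and 2 libraries, the 7 genes did not share a common profile. The Pearson correlation of log2(CPM + 1) between pairs of them ran from -0.09 for Ccdc189 with Tsc22d2 to 0.87 for Ankrd36 with Ccdc189, with a median of 0.47 over 21 pairs; these points share cells' libraries and depths, and the values are descriptions. The genes with the most similar profiles among 11845 were Urod, a haem synthesis enzyme, for Ankrd36 (0.978), the growth arrest gene Gadd45a for Ccdc189 (0.971), the erythroid transcription factor gene Nfe2 and its partner Mafg for Tbxas1 (0.967 and 0.951), Slc11a2, which encodes the iron transporter DMT1, for Lrrc8b (0.902), the histone gene Hist1h4d for 1810037I17Rik (0.930), Golph3l for Tsc22d2 (0.930) and Dpm1 for Gusb (0.854). These companions had ratios in erythroid-like cells of 1.02 for Urod, 1.09 for Gadd45a, 1.18 for Nfe2, 1.03 for Mafg, 1.11 for Slc11a2, 1.32 for Hist1h4d, 1.14 for Golph3l and 1.13 for Dpm1. The 7 genes were chosen for their gap and these companions were not, so their ratios are not compared.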

How the data were processed

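Spleen cells were profiled with 10x Genomics droplet 3′ single-cell RNA sequencing. The deposited matrices hold unnormalised UMI counts of every droplet, made by the authors with Cell Ranger 7.0.0 on mouse build mm10 per the submitters' processing notes (version 4 per the file headers); intron handling is not given in the sources used here.

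Barcodes with at least 1000 UMIs, 300 genes and at most 10% mitochondrial UMIs were kept, and the top 0.8% of Scrublet scores per 1000 cells were removed as doublets. Cells were clustered jointly (scanpy 1.11.5, Leiden resolution 1) and named from marker genes by a rule set after the data were seen: at least 3 markers 2-fold above the other cells, no other class ahead among the 10 leading genes, and no shallow cluster. UMIs were summed per library and group and scaled to UMIs other than haemoglobin; genes needed 50 UMIs over both libraries. On simulated Poisson counts the intervals covered the true ratio for 95.4% of 10446 genes. The intervals assume such counts, so this checks the calculation only and not the spread between real cells. Named genes were all members, the 3 most correlated genes each, of which the first is given, neighbours, and list genes by level or fold. The members and lists were chosen with earlier results of these data known. Positions follow GENCODE M21 on GRCm38, with 32158 genes matched, and promoters RefSeq GRCm38.p6. Alternatives are listed in the closing section. Counting intervals do not cover differences between mice.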

Additional observations from a re-analysis of the deposited data

Results flagged for a closer look

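For 3 results the ratio PHZ over bleeding lay below 1 with its whole counting interval, whereas the same gene's ratio in erythroid-like cells lay above 1; the difference between cell types was not tested, since each treatment has 1 library. Gusb was at 211 CPM in 17 PHZ dendritic cell-like cells and 298 CPM in 39 bleeding ones, a ratio of 0.708 (0.555 to 0.898). Gusb was at 23.0 CPM in 20 PHZ plasma cell-like cells and 53.6 CPM in 170 bleeding ones, a ratio of 0.429 (0.193 to 0.831) that rests on 9 UMIs in the PHZ library. Tbxas1 was at 104 CPM in 16 PHZ red pulp macrophage-like cells and 351 CPM in 212 bleeding ones, a ratio of 0.295 (0.0800 to 0.763) that rests on 4 UMIs in the PHZ library, all in at most 3 cells. These groups have fewer than 50 cells in the PHZ library. The red pulp macrophage-like cells also differed in median haemoglobin share, 3.07% in PHZ and 47.7% in bleeding cells, so that ratio compares unlike cells. The part of erythroid RNA in it was not tested.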

How the results depend on the processing

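No paired analysis was possible because each treatment has 1 library. Of 91 recomputed ratios of single genes in all erythroid-like cells, 91 were at 1.5 or more, 0 reversed, 65 stayed within the counting interval and 26 moved beyond it. With all UMIs as the denominator the ratios were 3.17 for Gusb, 3.43 for Ankrd36, 3.13 for Ccdc189, 2.56 for Lrrc8b, 2.31 for 1810037I17Rik, 2.46 for Tsc22d2 and 2.42 for Tbxas1. With equal weight per cell they were 4.17, 3.61, 3.41, 3.07, 3.15, 2.69 and 2.18 in the same order, the median of all genes moving by 0.28 on the log2 scale. With at least 500 genes per cell Gusb was at 2.14, 1810037I17Rik at 1.55 and Tsc22d2 at 1.69. With the haemoglobin-dominated barcodes Gusb was at 2.58, 1810037I17Rik at 1.86 and Tsc22d2 at 1.99. Background subtraction gave 1.63 for 1810037I17Rik, and keeping doublets gave 1.68 for Tsc22d2. Without cluster 17, added after seeing the data, Gusb was at 3.01, Lrrc8b at 2.26, 1810037I17Rik at 2.04 and Tsc22d2 at 2.06; without cluster 13 or with cluster 18, also added, all 7 stayed within their intervals.

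Of 152 recomputed counts of genes past the fold, 132 stayed within 1.5 times and 20 did not. The share of all genes past the fold was not computed for these alternatives, except without cluster 17 under 20% haemoglobin. At a fold of 2 the count was 3 in all erythroid-like cells, 1 at 20 to 50% haemoglobin, 3 at 50 to 80% and 0 in NK cell-like cells. Under 20% haemoglobin it was 5 with equal weight per cell, 1 without the 3 highest cells, 1 with limits 5 points higher and 2 without cluster 17. At 20 to 50% it was 3 after background subtraction and 3 with limits 5 points lower; in the haemoglobin-dominated barcodes it was 1 after background subtraction. In B cell-like cells it was 2 with doublets kept and 3 with a floor of 10 UMIs, in T cell-like cells 1 and 3. In NK cell-like cells it was 0 without the 3 highest cells and 0 with at least 2000 UMIs, in neutrophil-like cells 1 without the 3 highest cells, and in monocyte-like cells 1 with equal weight per cell and 1 without the 3 highest cells. The cause of these moves was not tested. With 1 library per treatment, depth narrows counting intervals only, and genes with few UMIs in late and immune cells stay imprecise.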
